A study of Mus musculus with 7 samples.

Results

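The cells described here are 711 germ cells of the E14.5 (embryonic day) mouse ovary with high levels of 2 meiotic transcripts, Stra8 and Sycp3. They were chosen by measured values in the E14.5 library. A cell was a member if it had at least 1000 detected genes, at least 3 unique molecular identifiers (UMIs, counts of captured mRNA molecules) of Dazl plus Ddx4, no Wnt6 UMI, and at least 300 Stra8 and 600 Sycp3 UMIs per 1000000 of its total. The first 3 conditions, called the germ gate below, were met by 2256 of the 11417 cells at E14.5, and the 711 late cells made up 31.5% of them (29.6 to 33.5). They were 6.23% (5.79 to 6.69) of the E14.5 cells, and the series holds 52542 cells in all. The cells they were set against are the 1206 early cells of the same Stra8 gate (53.5% of the germ gate), which had Sycp3 below 600. A further 318 germ cells (14.1%) were below both thresholds, and 21 (0.931%) had Sycp3 from 600 with Stra8 below 300. Intervals in parentheses are 95% exact intervals and cover counting error only.

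The series consists of 7 libraries of pooled gonads from untreated wild-type mice of the C57BL/6J strain, 1 library per age. They cover 5 ages before birth (E11.5 and then every other day from E12.5 to E18.5) and the postnatal days P1 and P5. Whole gonads were dissociated without sorting, so the germ cells come from the same droplets run as the somatic cells. With 1 library per age and cells that share their source, no test between groups was possible, and no p value is given. Age and library cannot be told apart. The late cells held 7695430 UMIs with a median of 10743 per cell (1961 to 31760), and the early cells 17240911 UMIs with a median of 13569 (1963 to 58241). The median number of detected genes was 3048 and 3407.5 per cell. Mitochondrial transcripts made up 2.65% of the UMIs of late and 2.73% of those of early cells, ribosomal protein transcripts 31.4% and 34.0%, and haemoglobin transcripts 0.265% and 0.196%. Of the late cells, 21 (2.95%) carried a cell barcode that also occurs in another library, against 468 (4.10%) of all E14.5 cells.

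In the fetal ovary, germ cells stop dividing mitotically, replicate their DNA once more and enter meiotic prophase. STRA8, made in response to retinoic acid and bone morphogenetic protein (BMP) signals, acts at this entry. Chromosomes are then held along a protein axis of meiotic cohesins, HORMA domain proteins and SYCP2 and SYCP3. On this axis SPO11 makes DNA breaks at sites marked by PRDM9, the strand exchange proteins pair homologous chromosomes, and the transverse filament SYCP1 and central element proteins join the axes into the synaptonemal complex. Genes of the pluripotent primordial germ cell are silenced over the same period.

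**Figure D1:**
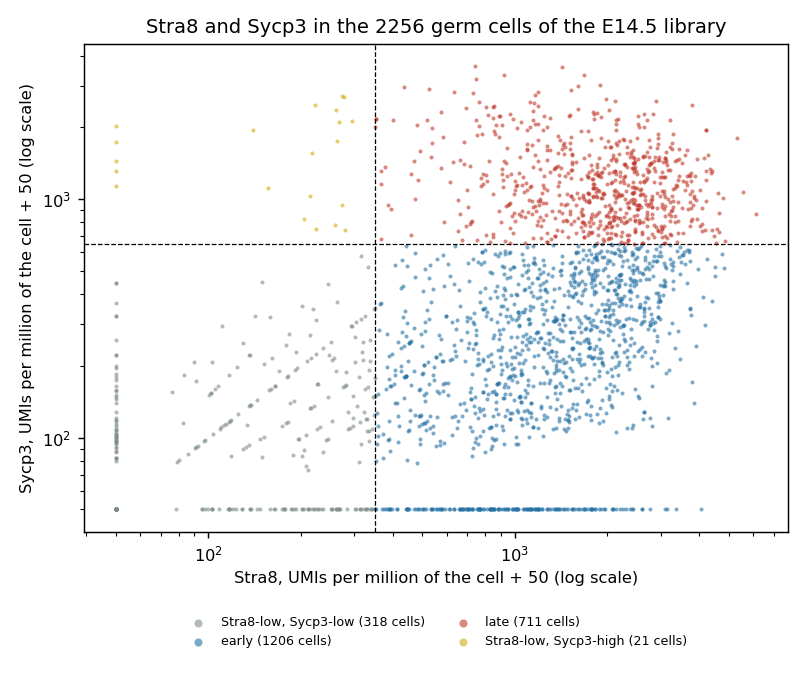
Each point is 1 of the 2256 cells of the E14.5 germ gate, with Stra8 on the x axis and Sycp3 on the y axis, in UMIs per 1000000 of the cell plus 50, on log scales. Dashed lines mark the thresholds of 300 and 600, and the 711 late cells in the upper right pass into the 1206 early cells without a gap.

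Stra8 in the late cells had a median of 1977 UMIs per 1000000 (300.3 to 6105) and Sycp3 a median of 1047 (600 to 3567). In early cells the medians were 1228 for Stra8 and 187 for Sycp3. These values defined the classes and are given as a description. The threshold cut a continuous range. The 50 members nearest above it (Sycp3 600 to 661) had Tex12 at 551 counts per 1000000 UMIs (CPM, the UMIs of a gene summed over the cells of a class and divided by all their UMIs) and M1ap at 218 CPM. The 50 early cells nearest below it (Sycp3 544 to 600) had Tex12 at 490.0 and M1ap at 202 CPM. In the same order Prdm9 was at 33.4 and 19.9 CPM and Pou5f1 at 123 and 144 CPM.

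The germ identity of the members was checked against marker lists. Tex12 was at 917 CPM (4.81 in mesenchymal cells of the same library, which serve as a background for free RNA), M1ap at 337 (2.96), Tex101 at 572 (3.79), Mael at 289 (3.79) and Dppa3 at 283 (11.01). The mesenchymal cells were chosen to hold no Dazl or Ddx4 UMI, so this background can understate free RNA of germ cells. Of these 5 germ markers that the rule did not use, the first 4 were past the fold upward against early cells and Dppa3, at 863 CPM in early cells, was past it downward. Foxl2 of supporting cells had too few UMIs to be compared, and Wnt6 was absent by the rule. The 8 supporting markers other than Wnt6 summed to 97.9 CPM in late, 137 in early and 3525 CPM in supporting cells, which were chosen by some of them, and Gng13 was the most abundant of them, at 57.7 CPM in late and 85.1 in early cells. The mesenchymal list summed to 42.0 CPM in late, 38.9 in early and 2280 CPM in mesenchymal cells, likewise chosen by 4 of its genes, and its most abundant gene in late cells was Col1a1 at 9.49 CPM. Of the endothelial markers, Pecam1, at 59.0 CPM in Stra8-low, 21.2 in early, 5.59 in late and 9.34 in mesenchymal cells, was 3.79-fold lower in late than in early cells (2.76 to 5.33), and Egfl7 was at 10.5 CPM in early and 7.93 in late cells. The epithelial list summed to 24.8 CPM in late and 37.1 in early cells, and the rete or mesonephric list to 4.94 and 10.6 CPM. The endothelial markers Cldn5, Cdh5, Kdr and Emcn, all 8 immune markers and the 4 Y-linked genes were below the minimum for a fold. Somatic markers were also summed in each cell, over the supporting, epithelial, mesenchymal, endothelial, immune and rete or mesonephric lists. Wnt6, Lhx9, Krt18, Pecam1 and the whole erythroid list were left out of this sum, and the rule had already removed Wnt6-positive cells. Over 0.2% of UMIs from these markers was seen in 0 of 711 late cells and in 8 early cells (0.663%). The count of 0 allows a share of up to 0.422% (the share that 3 cells would make, used for every count of 0 here in place of an exact interval). Of the marker lists of other cell types, the erythroid list had the highest sum, 2666 CPM in late and 1967 in early cells, with Hbb-bs at 1125 CPM in late and 875 in early cells, and the embryonic globin Hbb-y at 178 and 71.0 CPM. Their part in the results below was not tested.

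Across all 10880 genes with at least 50 UMIs in late and early cells together, 959 were at least 1.5-fold higher in late cells, a share of 8.81%, and 596 were at least 1.5-fold lower, a share of 5.48%. Folds were computed after adding 10 CPM to both levels, and calls and the order of folds rest on them, by size alone. An x-fold value printed beside a gene is the plain ratio of its levels. Stra8 and Sycp3 are among the 959, because the rule used them. They and the other measured genes of the rule, Dazl and Ddx4, are left out of the counts that follow (957 and 596 of 10876). With mitochondrial, ribosomal protein and haemoglobin genes left out of the total, the split was 1033 higher and 981 lower. The median log2 fold of all tested genes was -0.0042.

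The 15 genes with the highest folds were of several kinds. The highest fold was that of Prdm9. Prdm9 (ENSMUSG00000051977, GRCm38 chromosome 17, 15543079 to 15564354), the methyltransferase that marks recombination sites, was at 1.62 CPM in the Stra8-low cells, 5.80 (4.72 to 7.05) in early and 79.8 (73.6 to 86.4) in late cells. The ratio of late to early was 13.8 (11.1 to 17.2). At least 1 Prdm9 UMI was seen in 47.1% of late cells, 7.63% of early and 1.03% of mesenchymal cells. With every cell thinned to 2000 UMIs these shares were 16.6%, 1.41% and 0.129%, in the same order. Spdya, an activator of CDK2 at meiotic telomeres, was 7.43-fold higher (6.54 to 8.45), from 18.3 to 136 CPM. Taf7l, an X-linked germ cell TFIID subunit, was at 402 CPM in late and 66.2 in early cells (6.08-fold, 5.68 to 6.51). Figla, a transcription factor of oocytes that activates zona pellucida genes later in development, was at 16.6 CPM in early and 116 (108 to 124) in late cells, 6.98-fold higher. The zona genes Zp1, Zp2 and Zp3 and the oocyte genes Gdf9, Nobox and Bmp15 had too few UMIs to be compared. Of the 7 measured oocyte genes Figla was past the fold upward, Kit (38.2 CPM in early and 16.1 in late cells) and Ooep (15.9 and 4.68 CPM) were past it downward, and 4 were neither. The rest of the 15 genes with the highest folds were Dmrtc2, Lypd4, Inca1, Xlr4c, Xlr4a, Tex12, M1ap, Sycp2 and the histocompatibility genes H2-D1, H2-K1 and H2-Ab1, with ratios from 4.05 for Tex12 to 10.1 for Lypd4. Xlr4a, Xlr4b and Xlr4c are near-identical copies whose reads may not be told apart, so their single values are uncertain.

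The 15 genes with the lowest folds were of several kinds too. Phlda2 (ENSMUSG00000010760, chromosome 7, 143501545 to 143503150), an imprinted gene, was at 548 CPM in early and 96.2 in late cells, a ratio of 0.176 (0.163 to 0.189). Cox7b (ENSMUSG00000031231, chromosome X, 106015700 to 106022450), a subunit of cytochrome c oxidase, was at 408 and 67.6 CPM (ratio 0.165, 0.151 to 0.181), and Cox8a, another subunit of the same enzyme, at 464 and 94.6 CPM (ratio 0.204, 0.189 to 0.220). Ccnb1, the mitotic cyclin B1, was 4.62-fold lower (3.99 to 5.38). Dnd1, an RNA-binding protein needed for primordial germ cell survival, was at 114 CPM in early and 20.3 in late cells. Utf1, Dppa2 and Dppa3, genes of pluripotent cells, were lower 4.06-fold, 12.7-fold and 3.05-fold. The tubulin gene Tuba1b, the creatine kinase gene Ckb, the malate dehydrogenase gene Mdh2, the thioredoxin gene Txn1, Klf5 and Calcoco2 were also among the 15.

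**Figure D2:**
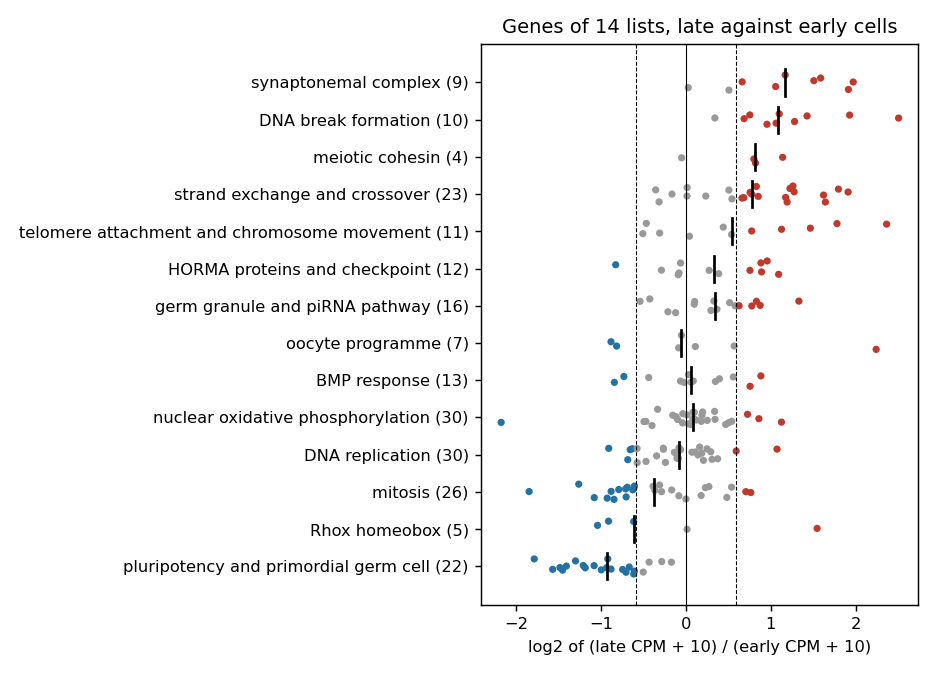
Each point is 1 measured gene of the list on the y axis (number in parentheses), placed on the x axis by its log2 fold of late over early cells with 10 CPM added; the bar is the list median. Red points are at least 1.5-fold higher, blue points at least 1.5-fold lower and grey points neither. The synaptonemal complex and break formation lists lie to the right and the pluripotency list to the left.

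The lists below were read beside the medians and shares of all tested genes given above. Of the 9 measured synaptonemal complex genes, Sycp3 aside, 7 were past the fold upward and none downward, with a median log2 fold of 1.17. Their summed level was 1424 CPM in Stra8-low, 2096 in early and 4313 in late cells. The central element gene Tex12 (ENSMUSG00000032065, chromosome 9, 50556819 to 50561325) had 226 CPM in early and 917 (896 to 939) in late cells, a ratio of 4.05 (3.90 to 4.21). Sycp2, the axis partner of SYCP3, was 5.71-fold higher (4.92 to 6.64) at a low level, from 14.3 to 81.7 CPM. Syce3 was 3.30-fold, Six6os1 (listed as 4930447C04Rik) 2.95-fold, Syce1 2.37-fold, Sycp1 2.11-fold and Syce2 1.60-fold higher. Fkbp6 (1.43-fold) was among those that did not reach the fold. Within single cells the list varied widely. Its level had a median of 4222 CPM in late cells, with 10% of cells below 2741 and 10% above 6596, and 97.5% of late cells lay above the median early cell (2069 CPM). The same share was 95.8% for meiotic cohesin, 94.9% for DNA break formation, 64.7% for nuclear oxidative phosphorylation and 54.4% for DNA replication.

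Of the lists of meiotic genes, DNA break formation had the largest share past the fold, 9 of 10 genes, with a median of 1.08 and none lower. Its sum was 432 CPM in early and 1143 in late cells. After Prdm9 the highest folds on the list were those of M1ap (81.3 to 337 CPM, 4.15-fold, 3.89 to 4.43) and Ankrd31 (5.34-fold). Mei1 went from 2.15 to 19.5 CPM (9.08-fold, 6.30 to 13.4). MEI1 and ANKRD31 act with REC114 and MEI4 in placing breaks. Zcwpw1, a reader of the histone marks made by PRDM9, was already at 222 CPM in early cells and at 474 in late cells. The nuclease gene Spo11 was at 8.24 and 25.3 CPM. Rec114 was the exception, at 86.3 and 112 CPM.

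Of 23 measured strand exchange and crossover genes, 15 were higher and none lower (median 0.78). Tex15 was at 69.9 CPM in early and 291 in late cells (4.16-fold, 3.87 to 4.46), and Dmc1, the meiotic recombinase, at 39.7 and 110.2 CPM. Rad51ap2 (14.4-fold, 10.3 to 20.8), the single-strand binding gene Meiob (7.70-fold, 5.98 to 10.0) and the crossover gene Msh5 (6.33-fold, 5.08 to 7.95) were among those with the largest ratios, from levels of 2.26, 4.64 and 6.38 CPM in early cells. The replication protein genes Rpa1 and Rpa2 (0.71-fold and 0.80-fold) stayed inside the fold.

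The cohesins divided by subunit. Smc1b was at 925 CPM in early and 2048 in late cells (2.22-fold, 2.17 to 2.26), Stag3 at 88.8 and 164 CPM, and Rad21l, counted in few molecules, at 0.522 and 8.32 CPM (15.9-fold, 7.89 to 36.4). Rec8, the meiotic kleisin, was at 174 CPM in early and 167 in late cells (0.963-fold, 0.901 to 1.03), after 53.4 CPM in Stra8-low cells, and at 4.44 CPM in the germ cells of the E16.5 library. The mitotic kleisin gene Rad21 was lower, at 152 CPM in Stra8-low, 75.6 in early and 24.7 in late cells, as was Smc1a (124 and 76.4 CPM). Of the 11 general and mitotic cohesin genes 1 was higher (Nipbl, 112 to 230.0 CPM) and 2 lower.

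Of the 11 genes on the list of telomere attachment and chromosome movement 5 were higher and none lower (median 0.54), while its summed level was 1418 CPM in early and 1300.1 in late cells. Besides Spdya, Terb1 (5.53-fold), Majin (4.95-fold), Terb2 (3.47-fold) and Kash5 (listed as Ccdc155, from 2.61 to 11.6 CPM) were higher. Sun1, which anchors telomeres in the nuclear envelope, was at 26.4 and 42.9 CPM and Dynll1, the most abundant gene of the list, at 1294 and 933 CPM, and neither they nor Sun2, Cdk2, Lmna and Lmnb1 were past the fold. On the HORMA and checkpoint list 5 of 12 were higher and 1 lower. Hormad1 was at 124 CPM in early and 276 in late cells, and Hormad2, Atm, Atr and Mdc1 were about as much higher, at 2.29-, 2.10-, 2.01- and 1.93-fold. The checkpoint kinase gene Chek2 was at 20.5 CPM in early and 7.15 in late cells.

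The pluripotency and primordial germ cell list went the other way. Of its 22 measured genes 18 were past the fold downward and none upward, and the median log2 fold was -0.93. Their sum was 6651 CPM in the E12.5 germ cells, 6001 in Stra8-low, 3927 in early, 1758 in late and 196 in E16.5 germ cells. Pou5f1 was at 239 and 83.6 CPM in early and late cells, Sall4 at 99.1 and 29.8, Lin28a at 45.4 and 16.1, Sox2 at 96.7 and 46.3 and Dppa5a at 1116 and 578 CPM. Tfap2c, a regulator of primordial germ cell fate, was at 26.1 and 5.59 CPM. By single cells, 97.3% of late cells had a summed level under the median early cell (3763 CPM), and the late median was 1523 CPM. On the abundant chaperone list, whose median log2 fold was only -0.245, 92.4% of late cells were under the median early cell. Tet1, an enzyme of DNA demethylation, was at 45.1 CPM in early and 13.5 in late cells, and was the 1 of 8 genes of the DNA methylation list past the fold.

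Cell cycle genes were lower in part. Of 26 mitosis genes 12 were lower and 2 higher (median -0.38). Ccna2 was at 81.2 and 27.9 CPM in early and late cells, Ube2c at 238 and 107, Ccnb2 at 280.4 and 142, and the kinase gene Plk1 at 31.2 and 13.8 CPM. Top2a (312 and 439 CPM), Birc5 and Mki67 were not lower, and Bub1 (85.6 and 152 CPM) and Kif23 were past the fold upward. The replication list had 24 of 30 genes inside the fold. Its lower genes were Tyms, Mcm2, Mcm3 and Mcm6, its higher genes the GINS subunits Gins2 and Gins3, and its sum was 3325 CPM in early and 3269 in late cells. Of 21 cyclins and inhibitors 5 were higher, 3 lower and 13 neither (median -0.11). Ccne2 was at 28.0 CPM in early and 120.5 in late cells (4.31-fold, 3.86 to 4.82), Cdkn2a at 94.4 and 232 CPM, and Ccnb3, a cyclin of meiosis, at 1.16 and 10.5 CPM, whereas Cdkn1a was at 65.9 and 27.4, Cdk4 at 109 and 63.2 and Ccnd3 at 51.3 and 28.3 CPM. On the apoptosis list Trp53 (3.14-fold), Bax (1.58-fold) and Parp1 (1.57-fold) were lower, and the other 9 measured genes were not past the fold.

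Signalling targets differed by gene. The BMP target genes Id1 and Id3 were higher in late cells, at 246 and 462 CPM and at 420.0 and 716 CPM in early and late cells, while Gata2 (68.4 and 33.7) and Smad7 (41.4 and 20.9) were lower and 9 of 13 genes were neither. On the list of meiotic entry and retinoic acid response, Meioc (74.0 and 159 CPM), whose product holds cells in meiotic prophase, and Taf4b (46.2 and 90.1 CPM) were higher. The other 12 were inside the fold, among them the binding protein gene Crabp1 and the receptor genes Rara and Rarg. The X-linked Rhox homeobox genes Rhox9, Rhox5 and Rhox6 were lower (2.10-, 1.91- and 1.56-fold), whereas Rhox13 was at 15.5 CPM in early and 64.6 in late cells. Of 16 measured germ granule and piRNA genes 5 were higher, with Gtsf1 at 19.5 and 64.3, Stk31 at 365 and 677, and Mael at 158 and 289 CPM in early and late cells.

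Cytochrome c oxidase subunits differed among themselves. Of the 30 genes of the nuclear oxidative phosphorylation list 26 were inside the fold, with Cox4i1 at 2135 CPM in early and 2268 in late cells and Cox6c at 2203 and 2398. Cox8a was the 1 gene of the list that was lower (Cox7b is not on it), and Ndufa1 (360.4 and 798 CPM), Sdhc and Ndufs1 were higher. Cox8a was at 1139 CPM in E12.5 germ cells, 1043 in Stra8-low, 464 in early, 94.6 in late and 81.7 in E16.5 germ cells, and Cox7b at 814, 936, 408, 67.6 and 70.8 CPM in the same order. Both were present in mesenchymal cells of the library, at 814 and 398 CPM. Thinned to 2000 UMIs, 13.7% of late, 47.6% of early and 77.9% of mesenchymal cells had a Cox8a UMI. The chaperone list had 2 genes higher, among them the germ cell chaperone gene Hspa2 (7.54 and 17.8 CPM), and 2 lower out of 11. No replication-dependent or variant histone gene among 13 was past the fold.

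**Figure D3:**
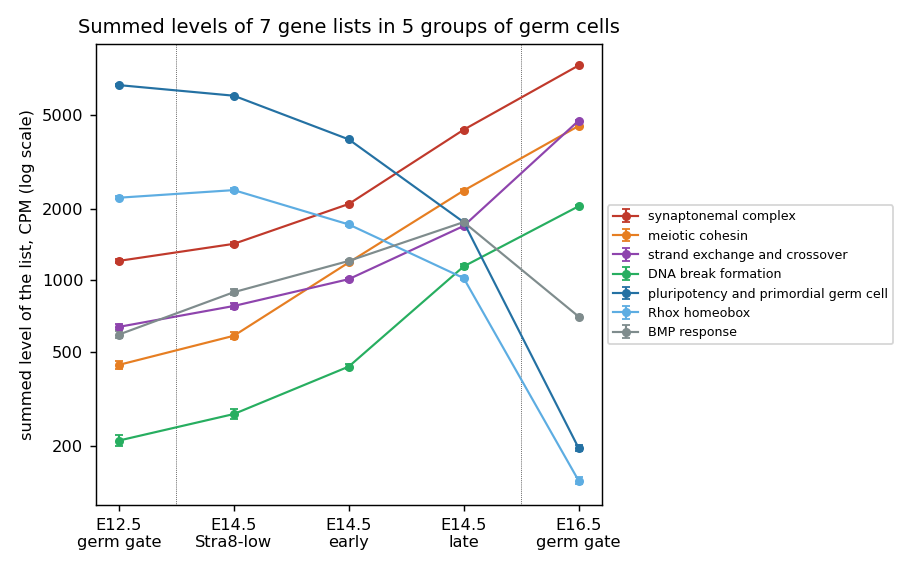
Points give the summed level of each list in CPM on a log scale in 5 groups of germ cells, with 95% Poisson intervals, and dotted lines separate the libraries. The 4 meiotic lists are higher and the pluripotency and Rhox lists lower in late than in early cells, and the E16.5 germ cells lie further in the same direction. BMP response is higher in late cells than in the other 4 groups drawn; E18.5 germ cells are not drawn.

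The E12.5 and E16.5 libraries share no cells with the comparison and allow the same genes to be followed before and after it. The E12.5 germ gate held 283 cells, of which 8 passed the Stra8 threshold and none was late (a count of 0 allows up to 1.06%, as the share of 3 cells). The E16.5 gate held 814 cells, of which 34 (4.18%, 2.91 to 5.79) met the rule for late cells, and no cell did so among 347 at E18.5 (up to 0.865%), 200 at P1 (up to 1.5%) and 52 at P5 (up to 5.77%). Of the 957 genes higher in late than in early cells, 87.3% were at least 1.5-fold higher in E16.5 than in E12.5 germ cells, against 36.8% of all tested genes. Of the 596 lower genes 79.4% were lower by that fold at E16.5, against 16.7% of all. In contrast, 10 of the 957 and 13 of the 596 went past the fold in the opposite direction. Some meiotic genes lay far above the late cells at E16.5, with Sycp1 at 2713, Tex15 at 2137, Sycp2 at 612 and Six6os1 at 2503 CPM, whereas Tex12 (368 CPM) and M1ap (168 CPM) were lower there than in late cells. The list sums did not go on in 1 direction to E18.5. Meiotic cohesin was at 2388 CPM in late, 4474 in E16.5 and 1860.3 in E18.5 germ cells, and break formation at 1143, 2051 and 758 CPM. Strand exchange was at 1693, 4708 and 2022 CPM and the synaptonemal complex at 4313, 8051 and 5857 CPM in the same order. The pluripotency list was at 1758, 196 and 602 CPM, the Rhox list at 1021, 143 and 189.8 CPM and the BMP response list at 1758, 703 and 2591 CPM. Genes of the pluripotency list differed. Dppa3 was at 5.99 CPM in E16.5 and 217 in E18.5 germ cells, Utf1 at 1.45 and 1.43 and Dppa2 at 0.898 and 1.43 CPM.

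Genes highest in the late cells were also looked for, a search made after their values had been seen. The genes searched had at least 50 UMIs in late and early cells together. Genes detected mainly in the other groups were thereby left out, which favours a maximum in late or early cells. Against the E12.5, Stra8-low, early, E16.5 and E18.5 germ cells, 1251 of 10876 genes had their highest level in the late cells, and 109 (1%) were at least 1.5-fold above the next group with 10 CPM added. The 10 genes furthest above it were Selenok, Tex12, Xlr4b, Sec22b, Asf1b, Tmem59, Cdkn2a, Hprt, Pde6d and Rex1bd. Selenok, a selenoprotein of the endoplasmic reticulum, was at 117 CPM in Stra8-low, 231 in early, 685 (666 to 703) in late, 248 in E16.5 and 221 in E18.5 germ cells. Cdkn2a was at 232 CPM in late and 35.7 in E16.5 germ cells. The histone chaperone gene Asf1b was at 199 and 73.7 CPM and the purine salvage gene Hprt at 377 and 115 CPM. Sec22b, a protein of transport between endoplasmic reticulum and Golgi, was at 230.4 and 89.9 CPM.

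**Figure D4:**
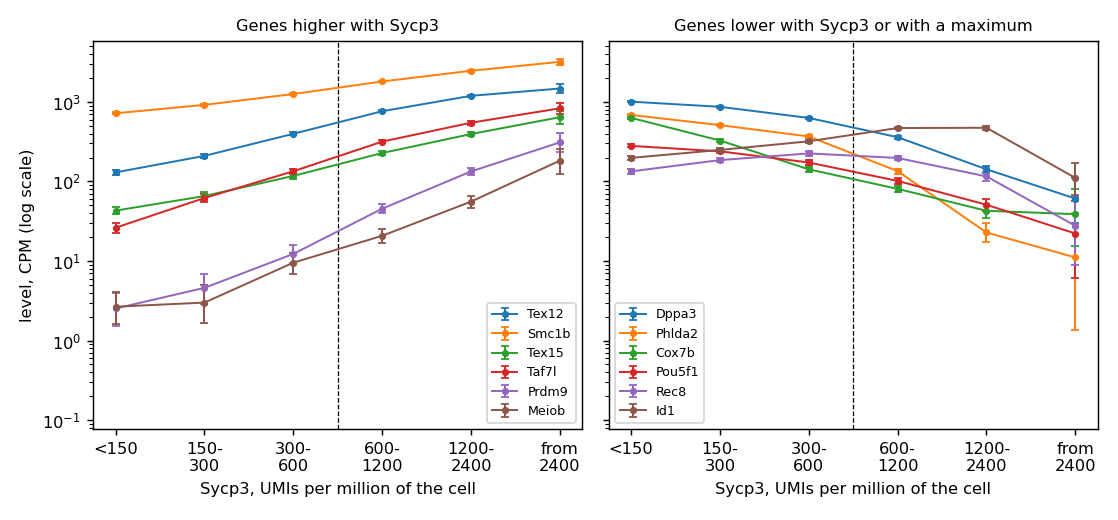
The level of 12 genes in CPM, on a log scale, in 6 bins of cells of the Stra8 gate by their Sycp3 level, with 95% Poisson intervals. The dashed line is the threshold of 600; Prdm9 and Meiob are higher in each bin to the right, Phlda2 and Pou5f1 lower, and Rec8 and Id1 have a maximum.

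The members themselves were not uniform. They were divided by Sycp3 into 433 cells from 600 to 1200, 255 from 1200 to 2400 and 23 above, beside 3 bins of early cells. The bins differed in depth, with a median of 11610, 9302 and 7215 UMIs per cell. The genes followed through the bins were chosen with their late and early levels known, and Sycp3 also set the classes, so their order over the bins is a description. Prdm9 was at 45.5 CPM in the first bin of late cells, 134 in the next and 310 in the last, and Meiob at 20.8, 55.8 and 183 CPM. Phlda2 was at 135, 22.8 and 11.1 CPM and Dppa3 at 359.9, 142 and 60.9 CPM. Rec8 was highest among early cells with Sycp3 from 300 to 600, at 225 CPM, and was at 197, 116 and 27.7 CPM in the 3 bins of late cells. Id1 was at 469, 473 and 111 CPM. Stra8 itself, which formed the gate, was at 2131, 1981 and 1385 CPM.

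Between the 278 members with Sycp3 from 1200 and the 433 below, 174 of 8079 genes (2.15%) were at least 1.5-fold higher and 301 (3.73%) lower. The highest folds were those of Prdm9 (3.21-fold), Rad51ap2 (3.68-fold), Meiob (3.11-fold) and Inca1 (2.63-fold), followed by Fbxo47, and Msh5 was also among the highest. Among the lowest, Phlda2 was 6.12-fold lower (4.68 to 8.15), and Sall4, Sox2, Lin28a, Dnd1, Cdkn1a and Ccnb1 were between 3.11-fold and 5.28-fold lower. The members were also divided by Stra8, which the rule used, into 113 cells from 300 to 1000, 485 from 1000 to 3000 and 113 from 3000. Sycp3 differed between these bins too, at 1362, 1115 and 1064 CPM. Prdm9 was at 152, 71.4 and 56.4 CPM, Meiob at 75.01, 30.6 and 25.7 CPM and Id3 at 386, 713 and 1008 CPM. Other meiotic genes did not share 1 order. Syce3 was at 376, 209 and 194 CPM, and Rec8 went the other way, at 99.4, 172 and 206 CPM. Tex12 (999, 881 and 1013 CPM), Sycp1 (736, 693 and 788 CPM) and Smc1b (2144, 1989.5 and 2232 CPM) differed less between the bins.

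STRA8 has been reported to act at promoters that hold the letters CNCCTCAG, in which N is any base. The windows from 250 bases before to 50 after the start of RefSeq transcripts (GRCm38.p6) were searched on both strands for CNCCTCAG, for the E-box CACGTG and for the E2F letters TCCCGC, which do not contain one another but can overlap. A match is a description of sequence and shows no binding. Of the 15 genes with the highest folds 14 had a window, and 9 of these held CNCCTCAG (Prdm9, H2-D1, Spdya, Lypd4, Figla, Inca1, Xlr4a, Tex12 and M1ap). Of the 15 with the lowest folds 9 had a window and none held it. The share was 9.12% over the promoters of all 27025 genes and 11.4% over the tested genes, 23.1% over the 778 higher genes with a window and 5.69% over the 457 lower ones. Of 8 synaptonemal complex genes with a window 5 held CNCCTCAG and 5 held the E-box. CNCCTCAG was in 2 of 8 genes of DNA break formation, 2 of 16 of strand exchange and crossover and 1 of 14 of pluripotency, and the E2F letters were in 13 of the 16 strand exchange genes. The E-box was found in 10.0% and 14.2% of the higher and lower genes and the E2F letters in 42.7% and 44.4%, against 12.3% and 42.9% of the tested genes.

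Of the 9 genes, 4 had the match before the transcript start in a stretch free of annotated exons (GENCODE vM21), and these stretches are shown because their genes are among the 15 with the highest folds. Capitals mark CNCCTCAG, or its reverse complement where it lies on the other strand. The sequences run 5′ to 3′ on the strand of the gene. In Prdm9 (chr17:15564355-15564604, minus strand) the match starts 41 bases before the transcript start and shares its first base with a TCCCGC. In Figla (chr6:86016941-86017190, plus strand) it starts 91 bases before the start, inside an intron of a longer annotated transcript. In M1ap (chr6:82946672-82946901, plus strand) it begins 111 bases before the start, on the other strand. Inca1 (chr11:70700156-70700405, minus strand) has matches at 142 bases, on the other strand, and at 16 bases.
Prdm9: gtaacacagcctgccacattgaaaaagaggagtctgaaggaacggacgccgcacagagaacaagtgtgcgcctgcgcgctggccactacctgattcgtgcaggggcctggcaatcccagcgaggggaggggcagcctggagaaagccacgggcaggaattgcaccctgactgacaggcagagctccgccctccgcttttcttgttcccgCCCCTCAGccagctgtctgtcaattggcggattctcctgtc
Figla: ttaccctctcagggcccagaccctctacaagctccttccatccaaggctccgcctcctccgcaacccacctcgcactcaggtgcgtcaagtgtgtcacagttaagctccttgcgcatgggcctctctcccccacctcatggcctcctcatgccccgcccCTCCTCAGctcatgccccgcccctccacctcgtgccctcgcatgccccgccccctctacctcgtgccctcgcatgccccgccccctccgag
M1ap: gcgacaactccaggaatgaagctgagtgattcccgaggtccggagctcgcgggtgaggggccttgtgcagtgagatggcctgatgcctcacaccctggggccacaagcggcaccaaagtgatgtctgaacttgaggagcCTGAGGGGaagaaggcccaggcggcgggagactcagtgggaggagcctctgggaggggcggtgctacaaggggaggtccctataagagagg
Inca1: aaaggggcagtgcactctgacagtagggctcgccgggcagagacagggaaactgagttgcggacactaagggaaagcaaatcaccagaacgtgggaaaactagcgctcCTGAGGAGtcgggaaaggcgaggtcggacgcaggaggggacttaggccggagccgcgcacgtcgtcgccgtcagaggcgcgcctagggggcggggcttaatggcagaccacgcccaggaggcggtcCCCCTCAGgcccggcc

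Dmrtc2 and Lypd4, 2 of the 15 genes with the highest folds, are neighbours on chromosome 7 that are read in opposite directions. Their RefSeq starts are 366 bases apart, and in GENCODE vM21 the exons of Lypd4 reach closer to Dmrtc2. Dmrtc2, a DM domain gene, was at 22.7 CPM in early and 155 in late cells (6.81-fold, 6.07 to 7.66) and Lypd4 at 6.96 and 70.4 CPM (10.1-fold, 8.29 to 12.4). At E16.5 they were at 94.3 and 48.4 CPM. The 115 bases between the annotated exons of the 2 genes (chr7:24869942-24870056, plus strand), shown because both genes were among those with the highest folds, hold none of the 3 motifs, whereas the RefSeq promoter window of Lypd4 held CNCCTCAG and that of Dmrtc2 the E2F letters.
Dmrtc2 and Lypd4: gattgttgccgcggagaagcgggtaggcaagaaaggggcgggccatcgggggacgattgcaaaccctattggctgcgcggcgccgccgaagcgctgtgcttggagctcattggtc

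**Figure D5:**
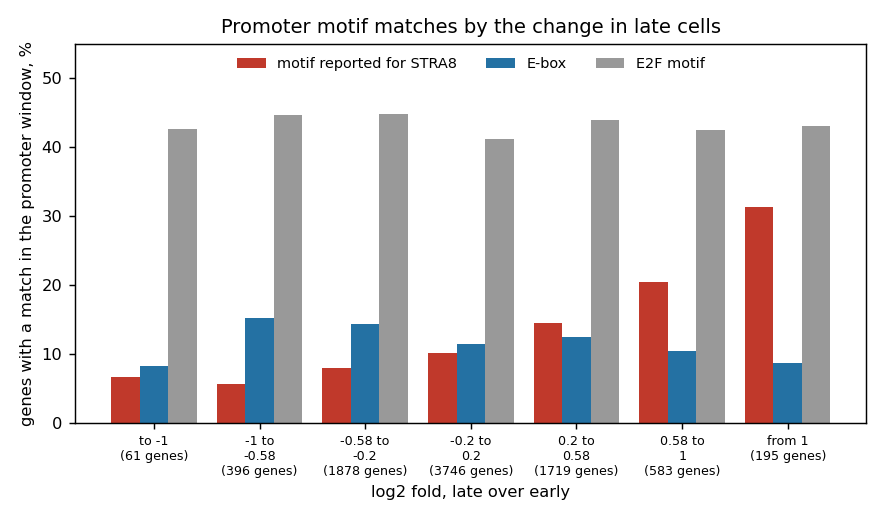
Bars give the percentage of genes with a match in the promoter window, for 3 motifs, in 7 ranges of the log2 fold of late over early cells (number of genes under each). The motif reported for STRA8 is at 6.56% of the genes with the lowest folds, 5.56% of the next range and 31.3% of those with the highest, while the E2F motif stays between 41.2% and 44.8%.

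The share with CNCCTCAG differed along the signed fold, and was lowest in the second of the 7 ranges. CNCCTCAG was found in 6.56% of the 61 genes with a log2 fold of -1 or less, 5.56% of the 396 genes between the 2-fold and the 1.5-fold downward, 7.99% of the 1878 genes from there to -0.2, 10.1% of the 3746 genes within 0.2 of 0, 14.49% of the 1719 genes from 0.2 to the 1.5-fold upward, 20.4% of the 583 genes between the 1.5-fold and the 2-fold, and 31.3% of the 195 genes from 2-fold. Both late and early cells carried Stra8 by the rule, so the comparison is not one of presence against absence of Stra8.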

How the data were processed

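The authors made single-cell libraries with 10x Genomics v2 chemistry from dissociated gonads, and used Cell Ranger 3.1.0 with its mouse reference for mm10. What the authors deposited are raw UMI counts of 31053 genes in every called cell, without normalization. Cells of the 7 matrices were classed by the rule in a script, without clustering and without removal of doublets or background RNA. UMIs were summed per class and given as CPM. Folds had 10 CPM added, for genes with at least 50 UMIs in late plus early cells, and were called at 1.5. No test was run. The fold and the ratio intervals were tested on simulated data, the thinning was checked on deposited cells and the motif letters on a made-up sequence. For shares of cells, UMIs were thinned to 2000 per cell, which left out 1 late, 2 early and 3 mesenchymal cells. The mesenchymal cells were 1558 cells of the E14.5 library with at least 1000 genes, no Dazl or Ddx4 UMI and at least 5 UMIs of Nr2f2, Col1a1, Col1a2 and Col3a1; the 3567 supporting cells were taken likewise by Wnt6, Wnt4, Kitl and Foxl2.

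The members, the 21 pathway lists and the 9 marker lists were chosen with earlier results of these data known. The text names the 15 genes with the highest and the 15 with the lowest folds, and from a list the 4 most abundant genes and up to 4 furthest past the fold. A few genes that this rule or the lists hold are counted but not reported here by name. Other genes were chosen after their values were seen. UMI counts cover the 3′ end, and replicates are lacking, so intervals cover counting error only. Gene positions are from GENCODE vM21, promoters from RefSeq. Scripts ran in Python 3.11.15; scanpy 1.11.5 supplied Scrublet, scipy 1.17.1 the intervals, and numpy 2.4.6 the thinning. Alternatives to the thresholds, filters, scaling and pseudocount were run.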

Additional observations from a re-analysis of the deposited data

How the results depend on the processing

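The late share of 31.5% depended on where the Sycp3 threshold lies, with 48.0% at 300 and 12.3% at 1200, and was 24.0% when the thresholds were applied to cells thinned to 2000 UMIs. Under the other 9 alternatives for choosing cells it lay between 30.0% and 32.1%. The 957 higher and 596 lower genes became 806 and 348 at a Sycp3 threshold of 300, 1139 and 1117 at 1200, and 526 and 268 with the thinned thresholds. They became 1033 and 981 without mitochondrial, ribosomal protein and haemoglobin genes in the total, 1776 and 1837 with a pseudocount of 1 CPM, 264 and 103 with 50 CPM, and 232 and 92 at a 2-fold call. When the UMIs were split at random into 2 equal parts, with cells chosen on 1 part and measured on the other, 848 genes were higher and 490 lower. Removing the 391 cells that Scrublet called in the library (20 late, 55 early) gave 1001 and 625. Over 19 alternatives none of the 30 named genes with the highest and lowest folds, and none of the 6 lists with a median past the fold, changed sign. A change of the pseudocount or of the minimum number of UMIs cannot change the sign of a gene, so those alternatives could not show it. Of 570 values of the named genes, 139 differed from the main value by more than the counting error. The medians of these lists ranged from 0.91 to 1.23 for the synaptonemal complex, 0.41 to 1.77 for break formation, 0.42 to 1.06 for meiotic cohesin, 0.37 to 1.06 for strand exchange, -1.54 to -0.48 for pluripotency and -0.97 to -0.30 for Rhox genes, the smallest sizes for the 4 lists from break formation to pluripotency coming with a pseudocount of 50 CPM. The median of the telomere list, 0.54, was past the fold in 3 alternatives (0.61, 0.83 and 0.94). Dppa2 was the 1 named gene short of the fold, at -0.50 with that pseudocount. No paired analysis was possible because each age has 1 library. The cause of these differences was not tested.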

Other observations

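Genes of the major histocompatibility complex were looked at after their values had been seen. Of 9 measured genes 3 were past the fold upward and 6 were not. H2-K1 was at 33.1 CPM in early and 203 in late cells (6.13-fold, 5.56 to 6.76), H2-D1 at 15.5 and 129 CPM and the class II gene H2-Ab1 at 7.60 and 56.9 CPM. In mesenchymal cells they were at 3.79, 3.98 and 1.29 CPM. B2m, whose product pairs with class I chains at the cell surface, was at 18.9 CPM in early, 26.6 in late and 117 in mesenchymal cells. Psmb9 and Tapbp, of peptide processing and loading, were at 2.32 and 2.86 and at 5.22 and 4.94 CPM in early and late cells. H2-Q7, H2-Q10 and H2-Oa were at 5.85, 5.98 and 5.07 CPM in late and 2.84, 1.62 and 3.25 CPM in early cells, and were not past the fold. Immune markers, listed above, were below the minimum in late cells. In the E16.5 germ cells H2-K1 was at 373 and H2-D1 at 181 CPM, and at E18.5 at 59.9 and 41.1 CPM.

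Of 10 measured Xlr genes on the X chromosome, also looked at after their values had been seen, 7 were past the fold upward and Xlr3a, Xlr5b and Xlr5c were not. Xlr4a, Xlr4b and Xlr4c were at 226, 206 and 187 CPM in late and 49.4, 47.4 and 37.0 CPM in early cells, and Xlr at 101 and 30.0 CPM. The Xlr4 copies, whose reads may not be told apart, were counted singly here. Xlr3a, from the same cluster of genes, was at 16.01 CPM in early and 21.1 in late cells, a ratio of 1.32 (1.08 to 1.60). Of 420 X-linked genes tested, 66 (15.7%) were at least 1.5-fold higher and 21 lower, against 890 (8.53%) and 575 of 10437 autosomal genes. Genes of the X chromosome made up 4.25% of the UMIs of late and 4.12% of those of early cells. Xist was at 42.2 CPM in late, 49.0 in early and 2115 CPM in mesenchymal cells.

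Of the cytochrome c oxidase genes outside the lists, Cox7a1 was at 165 CPM in early and 115 in late cells, and Cox7b2 and Cox8c, paralogs of Cox7b and Cox8a, at 11.7 and 20.3 and at 12.8 and 25.7 CPM. Of these 3 genes Cox8c was past the fold upward and the other 2 were not. Cox7c (4587 and 4963 CPM in early and late cells), Cox6b1 (587 and 564) and Cox7a2l (395 and 469) were also outside the lists. None of them was past the fold, nor were Cox6b2 (195 and 187 CPM) and Cox4i2 (1.74 and 2.99 CPM).

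The E14.5 library shared between 63 and 136 cell barcodes with each library other than E16.5, and 1 with E16.5. Of the late cells, 10 shared a barcode with E11.5 and none with E16.5.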
